A study of Mus musculus with 6 samples.

Results

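The genes described here encode chains of laminin-332, the integrins that bind it and the plaque proteins of the hemidesmosome. They were taken from the deposited expression table by gene symbol alone, as *Lama3*, *Lamb3*, *Itga6*, *Itgb4*, *Itga3*, *Dst* and *Plec*. All 7 were present among the 15280 genes of the table, and none of them was lost to a filter. The RNA-Seq libraries came from 3 parous transgenic female BK5.ATF3 mice. Their tumors appeared at an age of 6 to 12 months and were taken at a length of 1.5 cm. From each mouse, 1 mammary tumor (T) and 1 normal, adjacent mammary gland (M) were sequenced, so n = 3 for each tissue. The BK5 promoter directs the *Atf3* transgene to basal epithelium. All 6 tissues carried the transgene, and no wild-type tissue was among the samples, so the values compare tumor with gland within transgenic animals.

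Hemidesmosomes rivet the basal surface of stratified and glandular epithelia to the basement membrane. On the outside, laminin-332, a trimer that holds the α3 and β3 chains, is bound by integrin α6β4. On the inside, the long tail of the β4 subunit holds plectin and the epithelial form of dystonin (BPAG1e), which tie the junction to keratin filaments. Integrin α3β1 binds the same laminin but belongs to focal contacts, where adhesion is linked to actin. In the mammary gland, these proteins join the basal myoepithelial layer to the basement membrane, and inherited loss of several of them causes blistering of the skin.

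The depth of the libraries ranged from 4750989 to 7806908 fragments on genes, and expression is given as CPM, fragment counts scaled to the effective library size. All 7 genes were well above the detection floor of 3 fragments (0.393 to 0.610 CPM). The lowest count behind any value was 17 fragments, for *Lamb3* in gland M11035. The tissues are bulk samples, in which fewer cells of a type and less RNA per cell cannot be told apart. The glands held adipocyte transcripts, whose 10 markers summed to between 3428 and 6728 CPM, against 160 to 221 CPM in the tumors. Glands M11035 and M11640 also held skeletal muscle transcripts, with 16692 and 5793 CPM over 12 markers, against 379 CPM in gland M9232 and 50.7 to 108 CPM in the tumors. The tumors came from different mice, and each gland is named with the number of its mouse, as is each tumor. With 3 libraries against 3, an exact permutation test of a single value cannot go below p = 0.1 (two-sided), so calls across all genes rest on the variance that limma shares between them.

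Of the 7 genes, 6 were upregulated in the tumors and none was downregulated, where a call required a 2-fold change and a limma FDR no higher than 0.05. Over all 15280 genes, 14.5% were called up and 13.7% were called down by the same rule. The quasi-likelihood test of edgeR called the same 6 up, against 14.6% of all genes. The largest fold changes were those of *Itgb4* (7.57-fold), *Itga3* (6.68-fold) and *Lama3* (6.31-fold), and the exception was *Dst*. In 6 genes the 3 tumors all lay above the 3 glands, as they did for 27.6% of all genes. In 1 gene, *Dst*, they all lay below, as they did for 26.3% of all genes. The log2 fold change (log2FC, tumor over gland, on log2(CPM + 0.5)) had a median of 2.24 over the 7 genes and of -0.0028 over all genes.

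**Figure D1:**
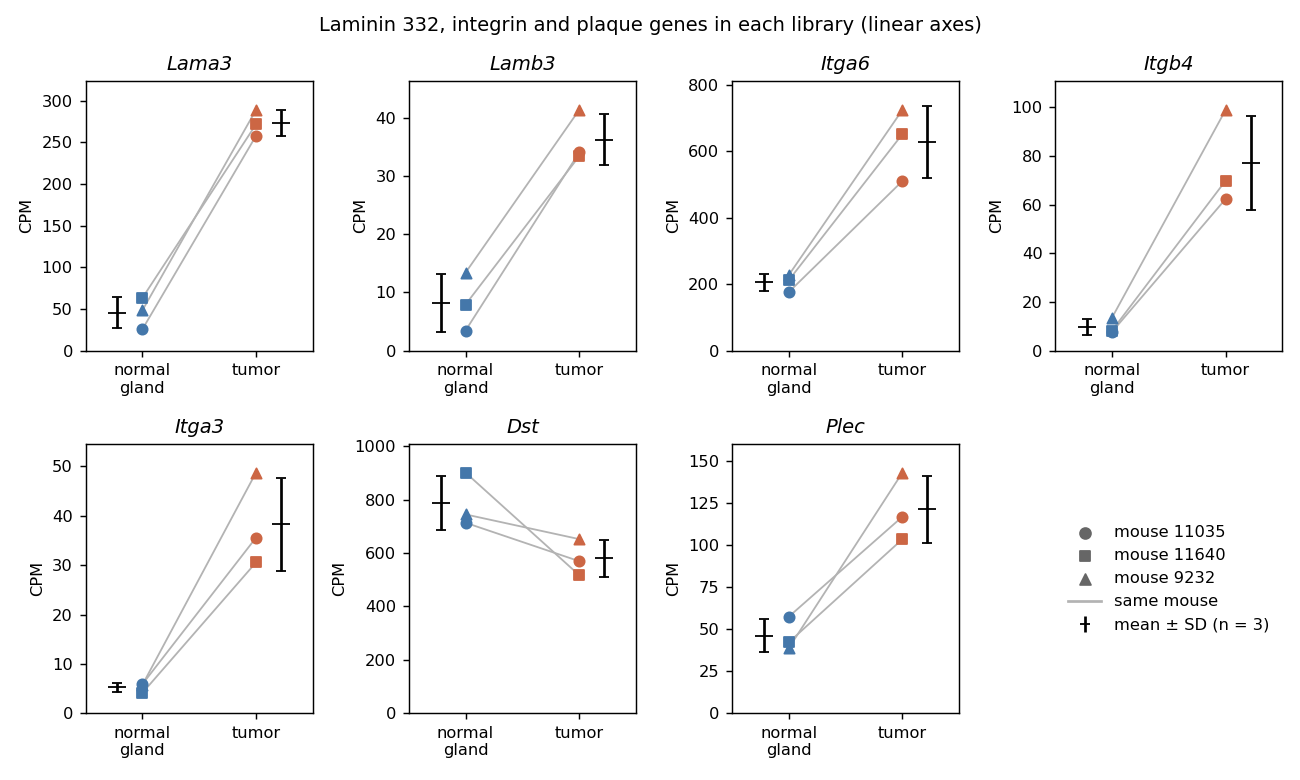
CPM (linear axes starting at 0) of the 7 genes in each normal gland (blue) and tumor (orange), with a line joining the tissues of 1 mouse and black bars for the mean ± SD (n = 3). All genes but *Dst* were higher in the tumor of every mouse, and tumor T9232 had the highest tumor value in every panel.

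*Lama3* encodes the α3 chain of laminin-332, the chain that integrins recognise. Its level was 25.6, 63.3 and 48.3 CPM in glands M11035, M11640 and M9232 and 258, 272 and 289 CPM in tumors T11035, T11640 and T9232. The lowest tumor was therefore several-fold above the highest gland, and the tumors were closer to each other (coefficient of variation 5.72%) than the glands were (41.5%). The log2FC was 2.66 ± 0.29 (SE, limma, adjusted p = 1.72e-04). Within mice it was 3.31 in the mouse of T11035, 2.09 in that of T11640 and 2.57 in that of T9232. *Lama3* lies on chromosome 18 of mm9 (12492533 to 12741522, plus strand), and the fragments of its 3 annotated coding transcripts were counted as 1 gene.

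*Lamb3*, on chromosome 1 of mm9 (195128151 to 195170072), encodes the β3 chain, which in known laminins occurs only in laminin-332. It was measured at 3.46, 7.93 and 13.4 CPM in the glands and at 34.1, 33.4 and 41.4 CPM in the tumors, in the same order of mice. The groups did not overlap, but the glands differed from each other by more than in any other of the 7 genes (coefficient of variation 60.3%). The log2FC was 2.24 ± 0.40 (SE, limma, adjusted p = 0.00253). It was 1.76 without gland M11035 and 2.66 without gland M9232, and *Lamb3* stayed called in both cases. Both chains were lowest in gland M11035.

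The ratio of *Lama3* to *Lamb3* overlapped between the tissues. *Lama3* CPM was 7.41, 7.98 and 3.602 times that of *Lamb3* in the glands and 7.57, 8.13 and 6.99 times in the tumors (exact permutation p = 0.6, adjusted p = 0.7 over 7 ratios). Gland M9232 stood below the other 5 libraries, and without it the difference in the log2 ratio changed from 0.34 to -0.027. *Lama3* CPM was 2.74, 7.23 and 4.77 times that of *Lama5* in the glands and 4.95, 5.57 and 5.88 times in the tumors, also with overlap (exact permutation p = 0.7, adjusted p = 0.7). *Lamb3* CPM was 0.283, 0.490 and 1.195 times that of *Lamb2*, the β chain of adult vessels and muscle, in the glands and 1.91, 2.48 and 2.60 times in the tumors, which all lay higher (exact permutation p = 0.1, adjusted p = 0.14).

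Of 9 genes in the table for other laminin chains and the laminin-related netrin 4, 1 was called up (*Lama5*) and 1 was called down (*Lama2*), against 14.5% and 13.7% of all genes. Their median log2FC was 0.15. *Lama5*, the α chain of laminin-511, was at 9.35, 8.75 and 10.1 CPM in the glands and at 52.1, 48.8 and 49.1 CPM in the tumors, with a log2FC of 2.35 (limma, adjusted p = 1.64e-05). *Lama2*, the α chain of the laminin that surrounds muscle and fat cells, fell to 53.7 ± 9.15 CPM in the tumors (SD, n = 3) against 162 ± 83.6 in the glands, with a log2FC of -1.45 (limma, adjusted p = 0.012). *Lamc1*, the γ chain of most other laminins, had a log2FC of 0.84 (limma, adjusted p = 0.0189), under the FC threshold.

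Divided by the exon length of each gene, the chains can be set against each other within a library. *Lama3* made up 10.1, 10.6 and 13.1% of the 5 α chain transcripts in the glands and 49.3, 52.0 and 51.5% in the tumors. In the glands the α chains were mainly *Lama2* and *Lama4*, at 41.9 ± 6.95% and 38.6 ± 8.30% (SD, n = 3), and in the tumors these stood at 10.8 ± 1.44% and 24.6 ± 0.664%. *Lamb3* took 5.98, 8.75 and 20.4% of the 3 β chains in the glands and 29.3, 27.4 and 30.0% in the tumors. For *Lama3* and *Lamb3*, every tumor share lay above every gland share (exact permutation p = 0.1, the lowest possible, adjusted p = 0.112 over 18 shares). Most of the 18 shares reached the same p, among them those of *Lama2*, *Lama4*, *Lama5*, *Lamb1* and *Lamb2*. *Lamb1* nonetheless remained the most abundant β chain in the tumors, at 61.3 ± 2.62%. Exon lengths are those of merged GENCODE transcripts on mm9 and may differ from the RefSeq models that were counted.

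**Figure D2:**
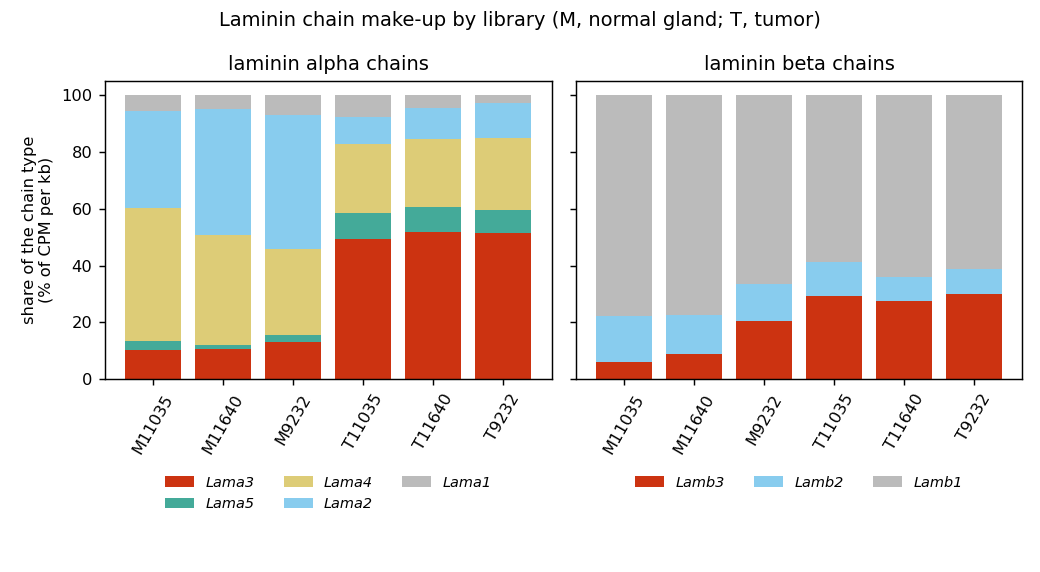
Share of each laminin chain within the α and β chains (percent of CPM per kb of exon, stacked to 100%) in each normal gland (M) and tumor (T), with *Lama3* and *Lamb3* in red. *Lama3* is at most 13.1% of the α chains in a gland and at least 49.3% in a tumor, while *Lamb1* stays the largest β part.

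*Itga6* encodes the α6 subunit, which pairs with β4 in hemidesmosomes and with β1 elsewhere, for example in endothelium. Its level was 176, 212 and 228 CPM in glands M11035, M11640 and M9232 and 510.6, 652 and 725 CPM in tumors T11035, T11640 and T9232. In both tissues the 3 mice came in the same order, and no gland reached the lowest tumor. The log2FC was 1.61 ± 0.17 (SE, limma, adjusted p = 1.51e-04), with 1.53 to 1.67 in the 3 mice. Of the 12 endothelial markers, 0 were called up and 2 were called down, against 14.5% and 13.7% of all genes. These markers summed to 428 to 580 CPM in the glands and 284 to 383 CPM in the tumors. The part of endothelium in the *Itga6* values was not tested. *Itga6* lies on chromosome 2 of mm9 (71583673 to 71696473).

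*Itgb4* encodes the β4 subunit, which pairs with no α subunit other than α6. It was at 7.73, 8.26 and 13.5 CPM in the glands and at 62.3, 69.9 and 98.9 CPM in the tumors. The mouse of T9232 had the highest value in both tissues, and the groups lay far apart. The log2FC of 2.92 ± 0.26 (SE, limma, adjusted p = 5.95e-05) was the largest of the 7 genes, and it ran from 2.82 to 3.01 in the mice. *Itgb4* lies on chromosome 11 of mm9 (115836023 to 115869726). β4 is also made by Schwann cells, of whose 9 markers examined 2 were called up (*Ngfr* and *Mal*) and 3 were called down (*Sox10*, *S100b* and *Cdh19*). Over all genes, 14.5% were called up and 13.7% were called down. The Schwann cell markers summed to 154 to 256 CPM in the glands and 119 to 347 CPM in the tumors. The part of Schwann cells in the *Itgb4* values was not tested.

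The ratio of α6 to β4 transcripts did not overlap between the tissues. *Itga6* CPM was 22.8, 25.7 and 16.8 times that of *Itgb4* in the glands and 8.19, 9.33 and 7.33 times in the tumors, so that no tumor reached the range of the glands. The difference in the log2 ratio was -1.38 (exact permutation p = 0.1, the lowest possible, adjusted p = 0.14 over 7 ratios). Per kb of exon, *Itga6* remained the more abundant in both tissues, at 22.8 ± 2.91 against 1.40 ± 0.458 CPM per kb in the glands and 69.7 ± 12.1 against 10.98 ± 2.75 in the tumors. *Itgb4* was also higher relative to *Itgb1*, the β subunit of focal contacts, in every tumor than in any gland, by 1.796 in the log2 ratio (exact permutation p = 0.1, adjusted p = 0.14).

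*Itga3* encodes the α3 subunit, the partner of β1 in the other laminin-332 receptor. Its level was 5.90, 4.13 and 5.75 CPM in the glands and 35.5, 30.5 and 48.7 CPM in the tumors. It was the least abundant of the 7 genes in the glands, also per kb, and no tumor came near the glands. The log2FC was 2.74 ± 0.24 (SE, limma, adjusted p = 5.21e-05), and it was 2.49, 2.75 and 2.98 for T11035, T11640 and T9232 over their own glands. *Itga3* lies on chromosome 11 of mm9 (94905788 to 94938115, minus strand). Its ratio to *Itga6* was higher in every tumor than in any gland, by 1.25 on the log2 scale (exact permutation p = 0.1, adjusted p = 0.14). Among the α subunits that bind laminin, its share per kb went from 3.75 ± 0.995% to 8.76 ± 1.64%, while that of *Itga6* was 91.2 ± 2.73% in the glands and 90.8 ± 1.77% in the tumors (exact permutation p = 0.8). The share of *Itga7*, the α subunit of muscle, was 5.08 ± 2.97% and 0.464 ± 0.259%.

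*Plec* encodes plectin, a very large plakin that links the β4 tail to intermediate filaments and is also found in muscle and many other cells. It was at 57.5, 42.3 and 38.8 CPM in glands M11035, M11640 and M9232 and at 117, 104 and 143 CPM in tumors T11035, T11640 and T9232. The groups did not overlap, and the log2FC was 1.39 ± 0.20 (SE, limma, adjusted p = 7.13e-04). It was 1.02 for T11035, 1.28 for T11640 and 1.87 for T9232 over the gland of the same mouse. The glands followed the order of their muscle markers given above, and without gland M11035, which had the most of them, the log2FC was 1.56. The part of muscle in these values was not tested. *Plec* lies on chromosome 15 of mm9 (76001404 to 76063004, minus strand) and has 22 annotated coding transcripts. Its exons overlap those of *Parp10*, and fragments there could belong to either gene.

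*Dst*, on chromosome 1 of mm9 (33965125 to 34365495), encodes dystonin, whose promoters give a short epithelial form in hemidesmosomes and longer forms in neurons and muscle. It was at 713, 901 and 744 CPM in the glands and at 569, 517 and 652 CPM in the tumors. Every tumor lay below every gland, although the lowest gland and the highest tumor were close. The log2FC was -0.44 ± 0.15 (SE, limma, adjusted p = 0.0451), below the FC threshold, so that *Dst* was not called. Within mice it was -0.32, -0.80 and -0.19 for T11035, T11640 and T9232. The adjusted p was 0.0536 with the mouse as a block (limma), 0.0606 with edgeR and 0.174 without tumor T11640 (limma). In the glands *Dst* was higher than 99.3% of all genes. The part of muscle in the *Dst* values was not tested. The ratio to *Plec* did not overlap between the tissues, but it also holds the rise of *Plec* (log2FC 1.39). *Dst* CPM was 12.4, 21.3 and 19.2 times that of *Plec* in the glands and 4.86, 4.99 and 4.55 times in the tumors. The difference in the log2 ratio was -1.84 (exact permutation p = 0.1, adjusted p = 0.14 over 7 ratios).

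The forms of dystonin start far apart on chromosome 1, and the table counts them together. RefSeq promoters (GRCm38.p6, 250 bases before each start) were used for 3 of the 7 genes, *Dst*, *Lamb3* and *Itga3*, with 2 starts each. Promoters of *Lama3*, *Itga6*, *Itgb4* and *Plec* are not shown. The starts of *Dst* lie 149 kb apart, and the 120 bases before each are shown here, 5′ to 3′ on the strand of the gene, because a gene total cannot say which of them was used. Those before the first starts of *Lamb3* and *Itga3* follow, as promoters of genes that rose. Capitals mark the GC box GGGCGG, searched on both strands.

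Dst first start, chr1:34011475-34011594: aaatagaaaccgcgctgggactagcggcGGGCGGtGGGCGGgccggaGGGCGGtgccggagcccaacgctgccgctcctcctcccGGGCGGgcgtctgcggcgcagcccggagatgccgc
Dst second start, chr1:34160140-34160259: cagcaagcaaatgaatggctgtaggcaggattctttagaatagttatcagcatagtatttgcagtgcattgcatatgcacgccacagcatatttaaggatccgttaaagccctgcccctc
Lamb3 first start, chr1:193301874-193301993: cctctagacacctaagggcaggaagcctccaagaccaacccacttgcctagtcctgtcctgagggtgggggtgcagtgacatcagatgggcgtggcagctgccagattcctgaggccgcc
Itga3 first start, minus strand, chr11:95076715-95076834: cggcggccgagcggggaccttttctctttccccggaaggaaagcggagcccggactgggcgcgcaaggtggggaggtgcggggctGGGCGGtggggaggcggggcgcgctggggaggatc

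The 2 *Dst* promoters differ in make-up. Over 250 bases, the first had 68.8% G and C with 4 GC boxes, and the second had 45.2% with 0. The median over the 32851 mouse promoters of the set, which left out chromosome 18, was 52.4%, and 32.7% of them had a GC box. The first promoter of *Lamb3* had 58.8% G and C with 0 GC boxes and that of *Itga3* had 67.6% with 3. The AP-1 site TGANTCA and the CRE TGACGTCA, the kinds of site to which ATF3 binds as a dimer, were searched on both strands. Neither was found in the 250 bases before any of the 6 starts, and they were present before 6.75% and 1.55% of the starts in that set. The absence of these letters says only that they are not in these windows.

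Per kb of exon, the order of the 7 genes changed between the tissues. In the glands *Dst* (26.3 ± 3.36 CPM per kb, SD, n = 3) and *Itga6* (22.8 ± 2.91) were the highest and overlapped each other. *Lama3*, *Plec*, *Lamb3* and *Itgb4* followed at means of 4.34, 2.55, 1.89 and 1.40, each overlapping the next, and *Itga3* was lowest at 0.921 without overlap. In the tumors *Itga6* was highest at 69.7 ± 12.1, followed by *Lama3* at 25.9 ± 1.48 and *Dst* at 19.4 ± 2.28, and these 3 did not overlap. *Itgb4*, *Lamb3*, *Itga3* and *Plec* came next with means from 10.98 to 6.70, and each overlapped its neighbour. Tumor T9232 had the highest tumor value in all 7 genes, where it was the highest of the 3 tumors for 36.2% of all genes.

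Most genes of a list of hemidesmosome partners were called up. Of 8 genes examined, 7 were called up and none was called down, against 14.5% and 13.7% of all genes. Their median log2FC was 3.29. The list was broad and also held *Itgb1*, *Fermt1* and *Trp63*. *Itgb1* is counted again with the other integrins and *Fermt1* with the plaque of focal contacts. *Col17a1*, the transmembrane collagen of the hemidesmosome, was at 9.15, 15.9 and 19.8 CPM in the glands and at 118, 126 and 155 CPM in the tumors (log2FC 3.17, limma, adjusted p = 4.6e-05). *Col7a1*, which forms the anchoring fibrils below the basement membrane, stood at 2.04 ± 0.716 CPM in the glands and 39.9 ± 9.93 in the tumors (log2FC 3.998, limma, adjusted p = 1.81e-05). *Krt5* and *Krt14*, the keratins that the plaque holds, rose by 5.48 and 5.75 on the log2 scale (limma, adjusted p = 2.02e-05 and 1.27e-05). *Trp63*, a transcription factor of basal epithelial cells, and *Fermt1*, an activator of β1 integrins in epithelia, rose by 3.41 and 2.90 on the log2 scale (limma, adjusted p = 4.73e-05 and 5.15e-05). *Itgb1*, the partner of α3, rose less, to 948 ± 162 CPM against 414 ± 62.0 (log2FC 1.19, limma, adjusted p = 9.27e-04). *Cd151*, a tetraspanin that binds both laminin receptors, was the exception, with 36.0, 56.8 and 32.8 CPM in the glands, 24.7, 37.7 and 37.9 CPM in the tumors and overlapping groups (log2FC -0.30, limma, adjusted p = 0.377).

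The other integrins were called in both directions. Of 22 genes, *Itgb1* included, 8 were called up and 6 were called down, against 14.5% and 13.7% of all genes. Their median log2FC was 0.07. The largest rises were those of *Itga5*, the α subunit of the fibronectin receptor (log2FC 2.17), *Itgb6*, an epithelial β subunit (1.87), and *Itga11*, a collagen receptor subunit of fibroblasts (1.70). The largest falls were those of *Itgb7*, *Itga4* and *Itga8*, with log2FC values of -2.20, -1.85 and -1.76. The first 2 of these are integrins of lymphocytes. Over these 6 genes the adjusted p in limma was 8.41e-05 to 0.0177. The exons of *Itga4* and *Itga8* overlap those of another annotated gene.

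The plakins, the family of *Dst* and *Plec*, were mostly called up. Of 5 other plakins, 4 were called up, against 14.5% of all genes. Among them was the desmosomal *Dsp* (36.0 ± 12.3 CPM in the glands and 1758 ± 327 in the tumors, log2FC 5.62, limma, adjusted p = 1.9e-06). *Ppl* and *Evpl*, which build the cornified envelope, rose by 3.95 and 3.63 on the log2 scale (limma, adjusted p = 1.05e-05 and 6.96e-05). *Eppk1*, an epithelial plakin, had a log2FC of 1.85 (limma, adjusted p = 1.32e-04). *Macf1*, which links actin and microtubules and is the closest relative of *Dst*, was at 1961 ± 409 CPM in the glands and 1931 ± 188 CPM in the tumors (log2FC -0.0064, limma, adjusted p = 0.981).

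**Figure D3:**
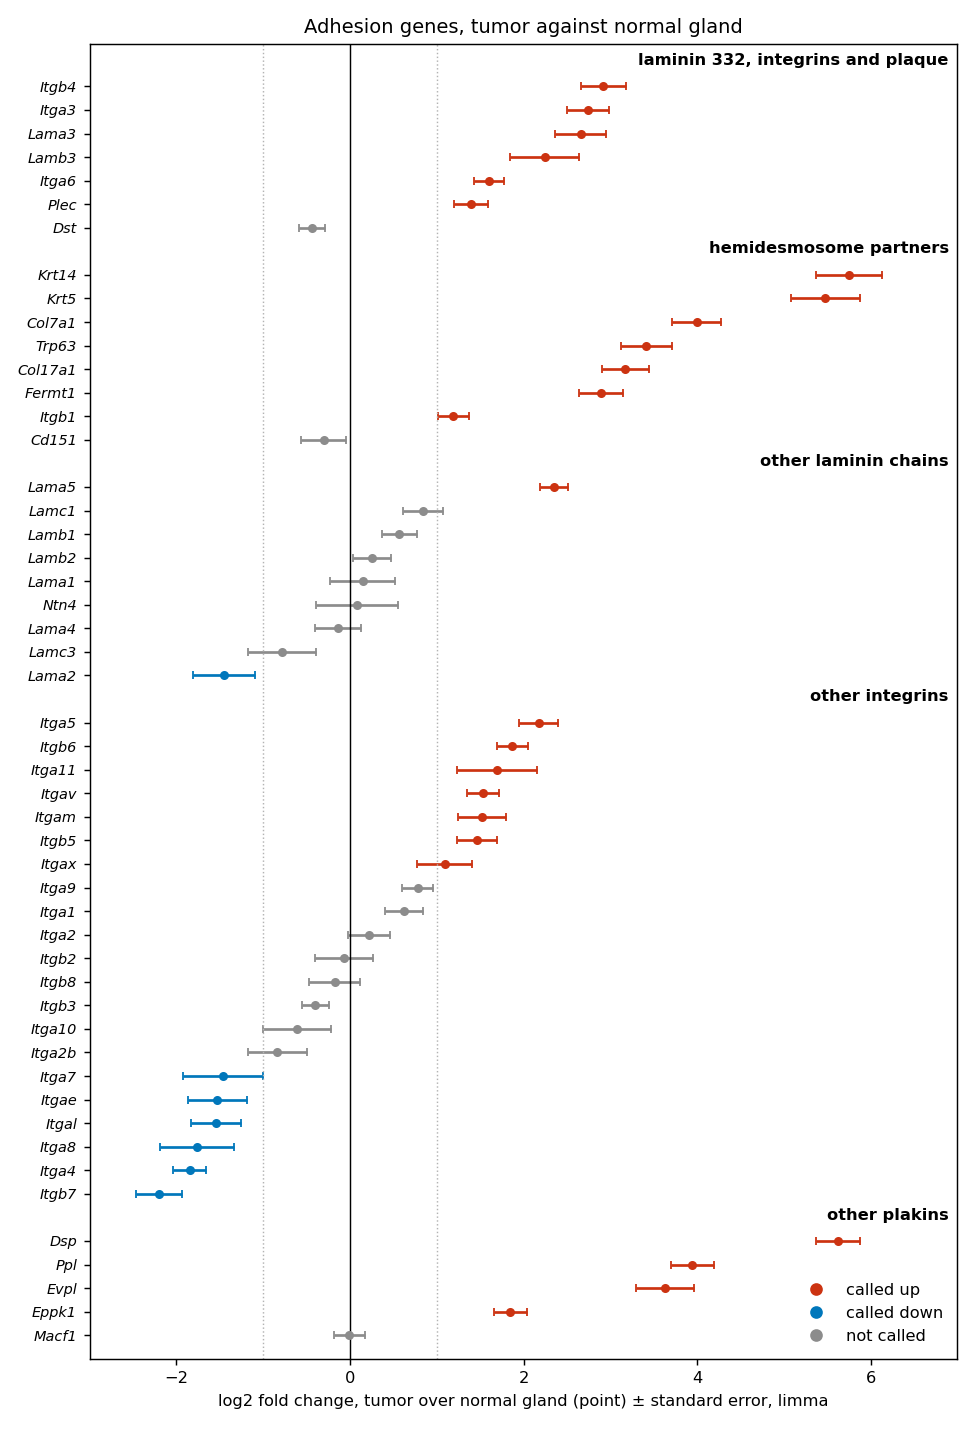
Log2FC of tumor over normal gland (points) with its standard error (bars, limma, n = 3 against 3) for the 7 genes, the hemidesmosome partners, the other laminin chains, the other integrins and the other plakins, and dotted lines at a log2FC of -1 and 1. Partners and plakins lie mostly to the right, except *Dst*, *Cd151* and *Macf1*, whereas other laminins and integrins lie on both sides of 0.

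The 7 genes were also set against epithelial transcripts of the same library, since the tumors held more of these. The mean log2(CPM + 0.5) of 12 general epithelial markers was higher in the tumors by 1.65, and 9 of the 12 were called up. Their sum was 251 to 544 CPM in the glands and 915 to 1219 CPM in the tumors. *Epcam* overlapped between the tissues, at 105 to 227 and 194 to 225 CPM. *Cldn4*, another of these markers, was near the floor in the glands (0.330 to 0.813 CPM). Against this mean, *Itgb4* was higher in the tumors by 1.27 on the log2 scale, *Itga3* by 1.09, *Lama3* by 1.01 and *Lamb3* by 0.60, without overlap between the tissues (exact permutation p = 0.1 for each, adjusted p = 0.14 over 7 genes). For *Lama3*, gland M11640 (2.71) and tumor T9232 (2.76) were close. With a pseudocount of 0.1 the exact permutation p for *Lama3* was 0.2. *Itga6* differed by -0.04 (exact permutation p = 0.8) and *Plec* by -0.26 (exact permutation p = 0.7), both with overlap. *Dst* was lower by 2.08 in the means of 6.16 ± 0.553 for the glands and 4.08 ± 0.187 for the tumors (exact permutation p = 0.1). The *Dst* total pools the epithelial form with those of neurons and muscle, and the part of each was not tested.

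Against the mean of 9 markers of basal epithelial cells all 7 genes were lower in the tumors. These markers were all called up, and their mean was higher in the tumors by 4.07 on the log2 scale. Several, such as *Krt5*, *Krt14*, *Trp63* and *Col17a1*, are also partners of the hemidesmosome. The rises were uneven, with a log2FC of 6.23 for *Krt15* but 1.77 for *Jag2* and 1.69 for *Snai2*. *Jag2* and *Snai2* thus rose less than *Lama3*, *Lamb3*, *Itgb4* and *Itga3*. In the glands *Krt15* (0 to 2.05 CPM) and *Krt17* (0.496 to 1.23 CPM) were near the floor. Relative to the mean of the markers, the 7 genes did not overlap between the tissues. That mean rose by more than any of the 7 genes (largest log2FC 2.92, *Itgb4*), so lower relative levels follow from the choice of reference. The share of all genes that separate in this way was not computed. The differences ran from -1.15 for *Itgb4* to -4.51 for *Dst* (exact permutation p = 0.1 for each). The values for *Lama3* and *Lamb3* were -1.41 and -1.83, and those for *Itga3*, *Itga6* and *Plec* were -1.33, -2.46 and -2.68. Markers of squamous cells summed to 15.5 to 17.2 CPM in the glands and 2746 to 4504 CPM in the tumors, and 9 of 9 were called up. Of 8 markers of contractile myoepithelial cells, 0 were called up and 5 were called down, with sums of 478 to 765 CPM in the glands and 202 to 244 CPM in the tumors. Their part in the levels of the 7 genes was not tested.

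**Figure D4:**
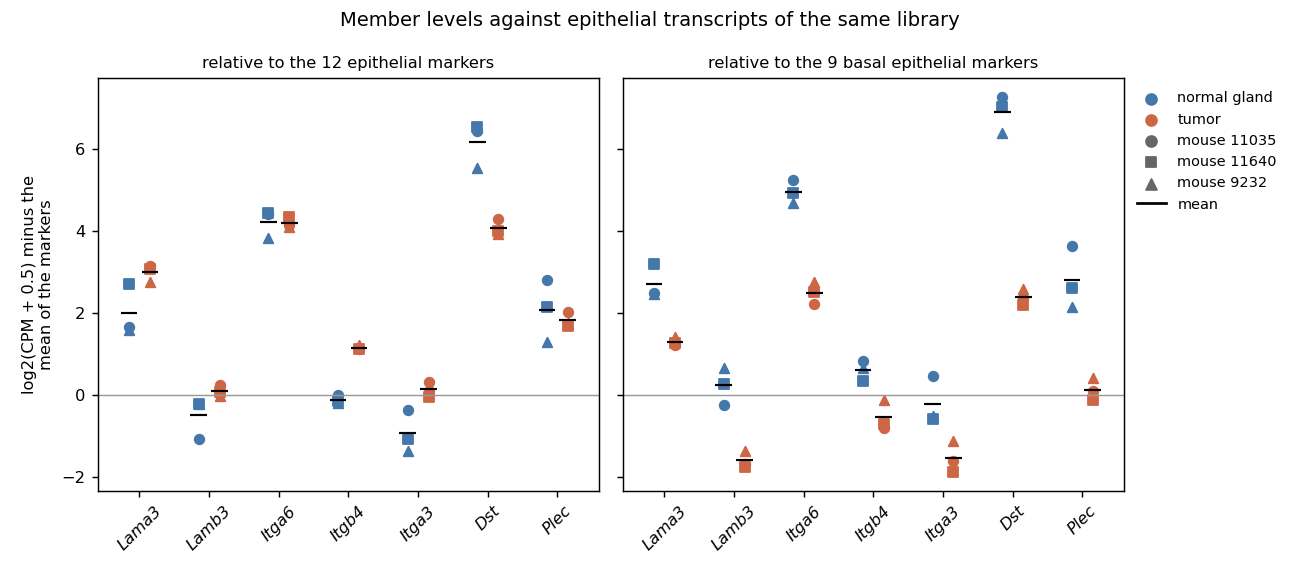
Level of each of the 7 genes as log2(CPM + 0.5) minus the mean of 12 epithelial markers (left) or 9 basal epithelial markers (right) of the same library, in normal glands (blue) and tumors (orange), with black lines for the means. Left, *Lama3*, *Lamb3*, *Itgb4* and *Itga3* are higher in the tumors and *Dst* is lower, whereas on the right all 7 genes are lower in the tumors.

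The genes with the most similar pattern over the 6 libraries were found by the root-mean-square difference of log2(CPM + 0.5) profiles, each centered on its own mean, among 11400 genes whose mean reached 5 CPM. For *Lama3* these were *Pdzk1ip1*, *Serpinb8* and *Emp1* (differences of 0.12 to 0.17), and for *Lamb3* they were *Exph5*, *Rassf9* and *Esrp1* (0.16 to 0.18). Those of *Itga6* were *Srpx2*, *Notch1* and *Nanos1* (0.08 to 0.10), those of *Itgb4* were *E2f8*, *Gpr176* and *Rps6ka6* (0.15 to 0.18), and those of *Itga3* were *Tnfrsf9*, *Ccnd1* and *Slc2a1* (0.13 to 0.15). *Plec* was closest to *Mbnl3*, *Bpgm* and *Kctd15* (0.08 to 0.11) and *Dst* to *Mrpl46*, *Apoa1bp* and *Ano10* (0.02 to 0.07). None of the 7 genes was among the nearest of another. The 6 libraries form 2 groups, so profiles are close wherever the difference between tumor and gland is of a like size.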

How the data were processed

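RNA-Seq values of 3 mammary tumors and the 3 adjacent normal glands of the same mice were used. According to the paper's methods and the submitters' processing notes, the authors mapped read pairs to mm9 with TopHat2 2.0.3, counted fragments per RefSeq gene with HTSeq 0.5.3p9 and removed genes with fewer than 10 fragments in all. The authors deposited a signal for each gene, CPM on the effective library size of edgeR 3.6.1. Within a tolerance of 0.001, 100% of the values in every library were whole multiples of 1 step, so fragments could be recovered. The planned analysis had taken the unit as plain CPM, and the same test was kept.

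Genes were tested over the whole table with limma 3.58.1 (R 4.3.3) on log2(CPM + 0.5), two-sided, with a mean-variance trend, no block and Benjamini-Hochberg adjustment over 15280 genes. Calls needed an adjusted p no higher than 0.05 and a log2 fold change of 1 or more in size. Fold changes are on the log2(CPM + 0.5) scale. On recovered fragments, edgeR 4.0.16 (quasi-likelihood) called 4462 genes and DESeq2 1.42.0 called 4436, against 4309 with limma. The fits were tested on simulated data. The 2 libraries of a mouse share an animal, so mouse numbers pair the samples. The deviations of gland and tumor from their group means correlated across 14712 genes, which are not independent replicates, with r = 0.107 (T11035), 0.151 (T11640) and 0.0168 (T9232). No 2 libraries of a tissue were copies, as their chi-square divided by its degrees of freedom was 13.0 or more.

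The members, lists and named genes were chosen with earlier results of these data known. The named genes are the 7 members, 7 set partners, up to 3 called genes with the largest rise and fall of each list and the 3 nearest profiles of each member. Other genes given with values were chosen after their values were seen. Some listed items are not reported here, and the counts leave them out. Of the listed genes, 8 were not in the table by the symbol used. Gene positions and exon lengths are from GENCODE vM1 (mm9). With BLAST 2.17.0, a coding transcript of another gene with at least 95% identity over at least 500 bp was found for *Dst* alone, as a 573 bp match to *Gfer*. Ratios, shares and marker-relative levels were compared by exact permutation tests. Floors cover counting error only, since PCR copies are not independent molecules.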

Additional observations from a re-analysis of the deposited data

How the results depend on the processing

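The 16 alternatives to the test across genes changed no call of the 7 genes, and 6 of them were called up under each. All genes called numbered 3774 (without tumor T11640) to 4462 (edgeR), against 4309. With the mouse as a block 4298 genes were called, with the log2 fold changes as reported, and the block changed no call of the 7 genes. The range of log2 fold changes was 2.29 to 2.94 for *Lama3*, 1.76 to 2.66 for *Lamb3*, 1.50 to 1.75 for *Itga6*, 2.73 to 3.16 for *Itgb4*, 2.55 to 2.89 for *Itga3*, 1.26 to 1.56 for *Plec* and -0.53 to -0.34 for *Dst*, whose adjusted p ran from 0.0148 to 0.174. With basal in place of general epithelial markers the difference became negative for *Lama3* (-1.41), *Lamb3* (-1.83), *Itgb4* (-1.15) and *Itga3* (-1.33), because the mean of the basal markers rose more. Differences that leaving out 1 library turned were *Lama3* to *Lamb3* (log2 ratio -0.027 to 0.55), *Lama3* to *Lama5* (-0.11 to 0.59, against 0.26), and the level against epithelial markers of *Itga6* (-0.25 to 0.069) and *Plec* (-0.65 to 0.11). For *Itga6* a pseudocount of 1 gave 0.052. The libraries that turned them were M9232 for the first, M11035 for the second and *Plec*, and M11035, M11640 or T9232 for *Itga6*, and the cause was not tested. The mean within-mouse difference as a block leaves ratios as they are, and its exact sign-flip test cannot go below p = 0.25. The fewest fragments behind a value of the 7 genes were 17.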

Other observations

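Enzymes known to process laminin-332 or to cut the matrix around it were called up without exception. All 8 genes of this list rose, with a median log2 fold change of 2.42, against 14.5% of all genes called up. *Bmp1*, which trims laminin chains after secretion, had 6.71, 13.2 and 5.47 CPM in glands M11035, M11640 and M9232 and 53.0, 54.4 and 59.2 CPM in tumors T11035, T11640 and T9232 (log2 fold change 2.74). *Mmp3* and *Mmp9*, secreted matrix metalloproteinases, rose by 3.98 and 3.54 on the log2 scale. The summed level of the list was 99.8 to 275 CPM in the glands and 782 to 1265 CPM in the tumors. Over the same libraries, 10 fibroblast markers summed to 1234 to 4231 CPM and 12335 to 14062 CPM, and their part in the list was not tested.

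Other parts of the basement membrane moved less evenly. Of 19 genes, 10 were called up and 1 was called down, against 14.5% and 13.7% of all genes, with a median log2 fold change of 1.01. *Col18a1*, *Fbln2* and *Fras1* had the largest rises, with log2 fold changes of 3.21, 3.11 and 2.76. The down call was *Col4a6*, an epithelial and smooth muscle chain of collagen IV (log2 fold change -1.47, adjusted p = 0.032, limma), which edgeR did not call. The common chains *Col4a1* and *Col4a2* had log2 fold changes of 1.19 and 0.67, and their exons overlap each other.

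The plaque of focal contacts, which holds α3β1 rather than α6β4, was examined over 20 genes. Of these, 5 were called up and 2 were called down, against 14.5% and 13.7% of all genes, with a median log2 fold change of 0.66. The 3 tumors all lay above the 3 glands in 11 of the 20 genes and below them in 3, against 27.6% and 26.3% of all genes. *Fermt1*, *Tns4* and *Actn1* rose by 2.90, 2.81 and 1.59 on the log2 scale, and *Lims2* and *Tns1* had log2 fold changes of -2.84 and -2.67. The exons of *Lims2* overlap those of another annotated gene.

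Of 7 macrophage markers in the table, 1 was called up and 1 was called down, against 14.5% and 13.7% of all genes. Their sums were 1105 to 3918 CPM in the glands and 1308 to 2571 CPM in the tumors. All 10 adipocyte markers were called down, and 4 of 12 skeletal muscle markers were called down with limma against 11 with edgeR.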
